A study of Mus musculus with 6 samples.

Results

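The cytotoxic effector genes of the lymphocytes in the small intestinal mucosa were described as 10 genes taken by symbol from the 32285 features of the count tables: Gzma, Gzmb, Prf1, Nkg7, Fasl, Ifng, Ccl3, Ccl4, Ccl5 and Xcl1. All 10 were found, and all 10 were abundant enough to be tested in each comparison. Their unique molecular identifiers (UMIs, 1 per captured RNA molecule) were summed per library over CD3 barcodes, which held at least 200 genes and at least 2 UMIs of Cd3d, Cd3e and Cd3g together. There were 7265 such barcodes among 60431 with at least 200 genes. Of these, 3943 had a Trdc UMI (Trdc-positive), 2265 had Cd8a and neither Trdc nor Cd4 (Cd8a-positive), and 207 had Cd4 and neither Trdc nor Cd8a (Cd4-positive).

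The study profiled cells of the small intestinal mucosa by droplet sequencing in 6 libraries, 3 per label, and each library is treated here as 1 replicate. The 3 IE-HuR-/- libraries, labelled HuR knockout, came from C57BL/6 mice with HuR fl/fl alleles and villin-Cre, which deletes the RNA-binding protein HuR (gene Elavl1) where the epithelial villin promoter is active, and the 3 control libraries, labelled wild-type, came from HuR fl/fl littermates without Cre. The methods give mice of 6 to 8 wk, kept for 24 h without food before experiments, while the labels give normal feeding, and whether a library held more than 1 animal is not stated. Cells were released with EDTA and TrypLE as an epithelial preparation, so the lymphocytes are those present in it, and no sort for lymphocytes is described.

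Cytotoxic lymphocytes kill a target cell by releasing granules. Perforin (Prf1) opens the target membrane, granzymes (Gzma, Gzmb) are the serine proteases that enter through it, and Nkg7 is a membrane protein of the granules; Fas ligand (Fasl) kills through the receptor Fas, interferon gamma (Ifng) acts on epithelial cells and macrophages, and Ccl3, Ccl4, Ccl5 and Xcl1 are chemokines that draw other leukocytes. Intraepithelial lymphocytes lie between the enterocytes, include gamma-delta T cells, whose receptor uses the constant chain Trdc, and T cells with CD8 as an alpha-alpha or an alpha-beta pair (Cd8a, Cd8b1), and are known for holding granzymes without recent stimulation.

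Of the 10 genes, 3 chemokines were close neighbours on mm10. Ccl5 (chr11:83525778-83530518), Ccl3 (chr11:83647844-83649355) and Ccl4 (chr11:83662584-83664683) lay on chromosome 11, Ccl4 on the plus strand and the others on the minus strand. Fasl (chr1:161780689-161788495) and Xcl1 (chr1:164931644-164935527) lay on the minus strand of chromosome 1, and Prf1 (chr10:61297833-61304680) and Ifng (chr10:118441046-118445892) on the plus strand of chromosome 10. Gzma (chr13:113093825-113100981, minus strand), Gzmb (chr14:56258838-56262260, minus strand) and Nkg7 (chr7:43437073-43438249, plus strand) were each alone among the 10 on a chromosome.

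RefSeq promoter windows on GRCm38.p6, from 250 bases before the start to 50 bases after it, matched 8 of the 10 genes, all but Ccl4 and Ccl5. The RUNX motif TGTGGT, searched like the others on both strands, was in 6 of the 8, against 16.8% of all 32851 windows, and the NFAT motif GGAAA in 6, against 61.3%. The T-box motif GGTGTGA was in 2 (Nkg7 and Xcl1), against 3.98%, and the AP-1 motif TGANTCA in 1 (Gzmb), against 7.81%. A match is a run of letters and not a bound site. The windows of both granzymes, of Prf1, which was called between the labels, and of Xcl1, which had the lowest fitted label difference of the 10 in both large subsets, are shown 5′ to 3′ on the strand of the gene, with matches to these 4 motifs in capitals:
Gzma, chr13:113100932-113101231, minus strand: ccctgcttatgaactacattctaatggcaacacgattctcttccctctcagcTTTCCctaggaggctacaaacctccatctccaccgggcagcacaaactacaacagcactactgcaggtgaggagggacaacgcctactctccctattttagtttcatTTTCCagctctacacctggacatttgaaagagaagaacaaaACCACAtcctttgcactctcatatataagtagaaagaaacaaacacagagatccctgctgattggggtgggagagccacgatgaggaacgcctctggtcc
Gzmb, chr14:56262285-56262584, minus strand: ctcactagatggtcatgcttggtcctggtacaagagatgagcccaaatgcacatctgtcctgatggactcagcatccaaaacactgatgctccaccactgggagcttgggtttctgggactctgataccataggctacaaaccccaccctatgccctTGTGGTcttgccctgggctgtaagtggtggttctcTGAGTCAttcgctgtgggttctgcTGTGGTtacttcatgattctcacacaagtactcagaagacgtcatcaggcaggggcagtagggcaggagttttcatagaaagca
Prf1, chr10:61297586-61297885, plus strand: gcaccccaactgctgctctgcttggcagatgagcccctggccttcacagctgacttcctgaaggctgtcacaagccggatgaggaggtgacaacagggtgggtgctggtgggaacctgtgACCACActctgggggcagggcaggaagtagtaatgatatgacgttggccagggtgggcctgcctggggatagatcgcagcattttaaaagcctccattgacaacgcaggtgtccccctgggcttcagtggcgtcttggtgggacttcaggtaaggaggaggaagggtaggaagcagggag
Xcl1, chr1:164935473-164935772, minus strand: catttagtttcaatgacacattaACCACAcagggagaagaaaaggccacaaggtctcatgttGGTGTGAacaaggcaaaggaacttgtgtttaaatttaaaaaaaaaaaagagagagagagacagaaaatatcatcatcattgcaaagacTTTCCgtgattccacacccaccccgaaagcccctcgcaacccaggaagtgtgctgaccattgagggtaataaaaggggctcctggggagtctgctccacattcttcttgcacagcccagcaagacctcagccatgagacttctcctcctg

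The CD3 barcodes held nearly all UMIs of these genes. Over the 6 libraries, 815128 of 842588 Gzma UMIs (96.7%) and 650883 of 668280 Ccl5 UMIs (97.4%) were in CD3 barcodes. The lowest such share of any of the 10 genes in any library was 83.9%, for Ifng, which had 381 UMIs in all. In an epithelial gate of barcodes rich in epithelial RNAs, Gzma was at 22.2 to 50.6 UMIs per 1000000 (CPM) over the libraries, Ccl5 at 12.8 to 29.7 CPM and Prf1 at 0.0455 to 0.212 CPM. In 55 barcodes gated on Ncr1, a receptor gene of natural killer cells, Xcl1 was at 285 to 2703 CPM, Ccl5 at 2098 to 4329 CPM and Prf1 at 51.5 to 570 CPM. That gate held 4 to 14 barcodes per library, and 149 of its 256 Xcl1 UMIs were in IE-HuR-/- library 3.

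The libraries held 8613 to 15041 barcodes and 59518012 to 91818560 UMIs. Pairs of libraries shared 22 to 44 barcode sequences, 2 of them within the subsets. The sums behind the results held 3301432 to 4594706 UMIs per library for Trdc-positive, 1121700 to 2941375 for Cd8a-positive and 57661 to 400101 for Cd4-positive barcodes. The Cd4-positive sums rested on 13, 12 and 8 barcodes in the control and 65, 55 and 54 in the IE-HuR-/- libraries. Elavl1, the gene deleted in the epithelium, was 71.8, 65.7 and 74.2 CPM in the control and 81.5, 76.3 and 78.3 CPM in the IE-HuR-/- libraries in Trdc-positive barcodes and was not called there (0.12 on the log2 scale, SE 0.08, edgeR adjusted p = 0.66).

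The subsets were set against their markers. Tcrg-C1, a constant chain of the gamma-delta receptor, was 729 to 989 CPM in Trdc-positive, 159 to 226 CPM in Cd8a-positive and 10.0 to 46 CPM in Cd4-positive sums. Trac, the constant alpha chain of the alpha-beta receptor, was 217 to 292 CPM in Trdc-positive and 406 to 587 CPM in Cd8a-positive sums, so neither of these subsets lacked the chains of the other. Cd8a was also present in Trdc-positive sums, at 877 to 1244 CPM. All 10 T cell markers were detected in each subset, while the NK marker Klra8 was at 0 in all 18 sums and Ncr1 at 0 in every Cd4-positive sum. Of the 4 genes of the NK list, 3 were detected in Trdc-positive, 3 in Cd8a-positive and 1 in Cd4-positive sums. Summed, the list was 13.3 to 23.1 CPM in the control and 14.6 to 19.7 CPM in the IE-HuR-/- libraries in Trdc-positive barcodes. In Cd8a-positive barcodes it was 23.99 to 28.4 CPM in the control and 22.2 to 24.1 CPM in the IE-HuR-/- libraries. Klf2, a factor of circulating T cells, was 572, 117 and 153 CPM in the control and 5.0, 13.1 and 30.4 CPM in the IE-HuR-/- libraries in Cd4-positive sums, without overlap.

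**Figure D1:**
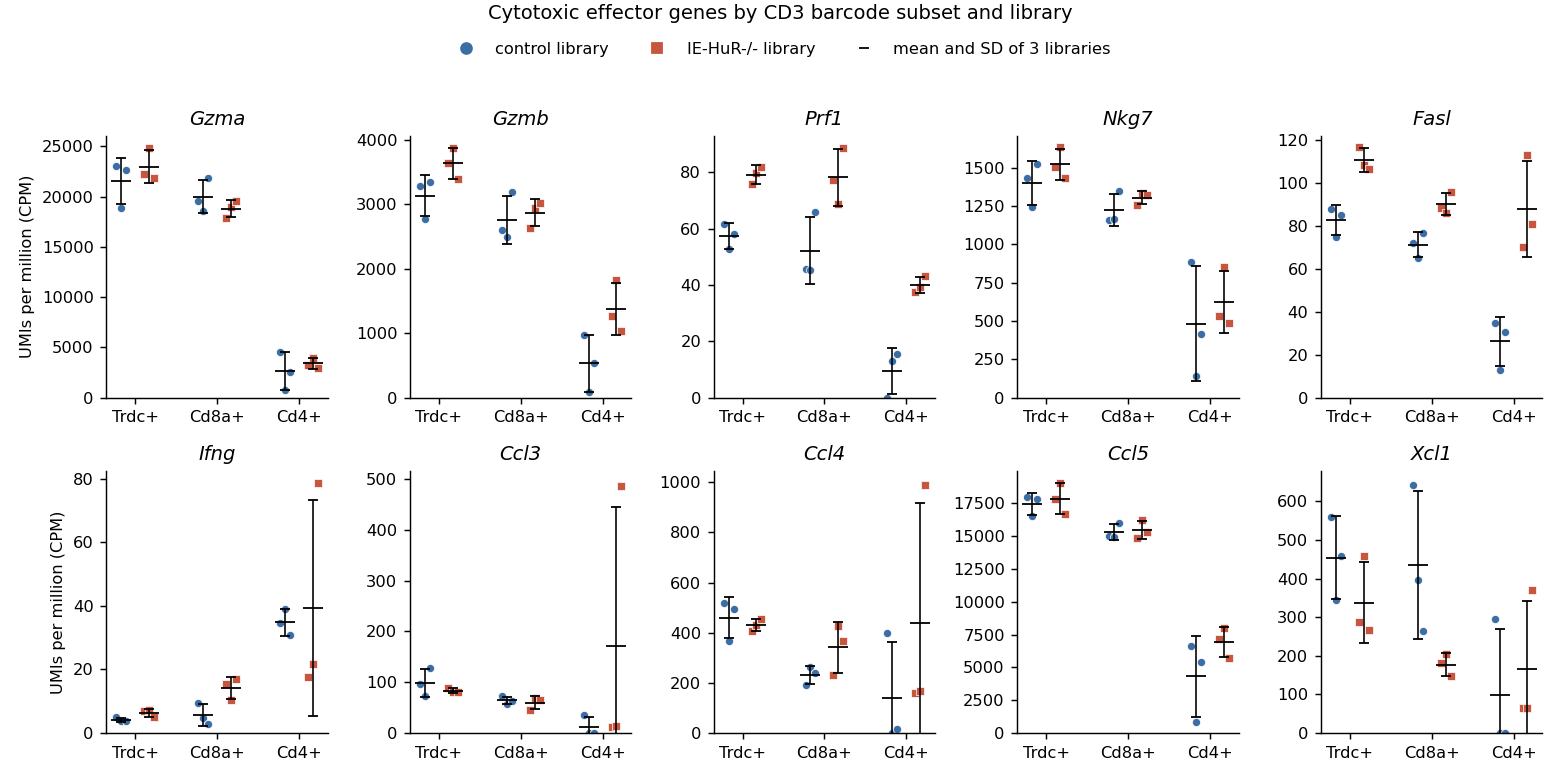
Levels of the 10 genes in UMIs per 1000000 (linear y axis from 0, own scale per gene) in Trdc-positive, Cd8a-positive and Cd4-positive CD3 barcodes. Points are libraries and bars the mean and SD of 3, cut off at 0; Gzma, Gzmb, Prf1, Nkg7 and Ccl5 were lowest in the Cd4-positive sum in 6 of 6 libraries, and Ifng was highest there in 6 of 6.

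Between the subsets, the granule genes and Ccl5 were higher in Trdc-positive and in Cd8a-positive than in Cd4-positive barcodes, and Ifng was lower. Gzma averaged 22255 ± 1951 CPM (SD, n = 6 libraries) in Trdc-positive, 19389 ± 1350.2 CPM in Cd8a-positive and 2995 ± 1310.1 CPM in Cd4-positive sums, whose range lay below both others. A single edgeR quasi-likelihood fit over the 18 sums, with the library as a block, put Gzma 3.07 (SE 0.31, adjusted p = 5.4e-05) higher on the log2 scale in Trdc-positive than in Cd4-positive barcodes. For Cd8a-positive over Cd4-positive barcodes the value was 2.90 (SE 0.30, adjusted p = 1.2e-04).

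Of the 10 genes, 7 were called between Trdc-positive and Cd4-positive barcodes at an adjusted p under 0.05, 6 of them higher, where 10.1% of all 12730 genes tested were called. The median log2 difference was 1.32 over the 10 genes and 0.13 over all genes, and the latter was -0.05 with DESeq2. Of all genes, 798 were called higher and 491 lower, against 581 and 792 with DESeq2. For Cd8a-positive over Cd4-positive barcodes, 6 of the 10 were called, 5 of them higher, where 5.48% of all genes were called. Here the median was 1.05 over the 10 genes and 0.11 over all, with -0.04 over all by DESeq2, and 503 genes were called higher and 195 lower, against 385 and 337 with DESeq2.

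Gzmb, the granzyme that cleaves caspases, was 3387 ± 372 CPM in Trdc-positive, 2815 ± 281 CPM in Cd8a-positive and 949 ± 598 CPM in Cd4-positive sums (SD, n = 6). It was higher than in Cd4-positive barcodes by 2.01 (SE 0.41, edgeR adjusted p = 0.011) and 1.77 (SE 0.41, adjusted p = 0.031) on the log2 scale. The second of these calls ended without control library 1, control library 3, IE-HuR-/- library 1 or IE-HuR-/- library 3, with edgeR adjusted p = 0.081 to 0.12. Prf1 was 68.4 ± 12.4, 65.2 ± 17.3 and 24.7 ± 17.6 CPM in the same order, a difference of 1.18 (SE 0.22, edgeR adjusted p = 3.1e-04) and 1.10 (SE 0.22, adjusted p = 0.0011). With counts thinned to the lowest total neither Prf1 difference was called (1.41, edgeR adjusted p = 0.17, and 1.28, adjusted p = 0.35). Nkg7 was 1462 ± 130.1, 1263 ± 85.1 and 551 ± 280.1 CPM, a difference of 1.55 (SE 0.24, edgeR adjusted p = 5.8e-04) and 1.36 (SE 0.24, adjusted p = 0.0024). For these 3 genes both subsets lay above the Cd4-positive sum of the same library in 6 of 6 libraries.

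Ccl5, a chemokine that attracts T cells, was 17659 ± 936 CPM in Trdc-positive, 15397 ± 578 CPM in Cd8a-positive and 5623 ± 2519.8 CPM in Cd4-positive sums (SD, n = 6). It was higher than in Cd4-positive barcodes by 1.84 (SE 0.38, edgeR adjusted p = 0.011) and 1.66 (SE 0.38, adjusted p = 0.029), in 6 of 6 libraries. Without control library 3 the adjusted p was 0.052 for Trdc-positive barcodes, and without control library 1, control library 3, IE-HuR-/- library 1 or IE-HuR-/- library 3 it was 0.078 to 0.11 for Cd8a-positive barcodes, as against 0.053 with thinned counts. Fasl, the ligand of Fas, passed the threshold for Trdc-positive over Cd4-positive barcodes (0.56, SE 0.18, edgeR adjusted p = 0.047, 5 of 6 libraries) and not for Cd8a-positive barcodes (0.32, adjusted p = 0.39). Leaving out control library 1, control library 2, control library 3, IE-HuR-/- library 1 or IE-HuR-/- library 3 ended the Fasl call, with adjusted p = 0.083 to 0.21. It also ended with DESeq2 (adjusted p = 0.10), with edgeR's filterByExpr (0.063), with thinned counts (0.22), with at least 3 CD3 UMIs (0.054) and without barcodes of over 5% epithelial UMIs (0.38).

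Ifng went the other way. Among Trdc-positive barcodes it had 19, 17 and 13 UMIs in the control and 23, 28 and 22 in the IE-HuR-/- libraries (3.70 to 7.20 CPM), and among the far fewer Cd4-positive barcodes 2, 3 and 2 and 7, 5 and 31 UMIs (17.5 to 78.6 CPM). Every Cd4-positive sum lay above both other sums of its library. The log2 difference was -2.63 (SE 0.38, edgeR adjusted p = 1.2e-05) for Trdc-positive and -1.70 (SE 0.36, adjusted p = 0.0026) for Cd8a-positive over Cd4-positive barcodes. In IE-HuR-/- library 3, 22 of 31 UMIs were in 1 barcode. Without the barcode with the most Ccl3, Ccl4, Xcl1 and Ifng UMIs in each library, taken out of the Cd4-positive sums alone after seeing the data, the values were -1.63 and -0.69. No p is given for them, since the barcodes were chosen by these genes. Without IE-HuR-/- library 3 as a whole, the Cd8a-positive value was -1.12 (adjusted p = 0.18).

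In Cd4-positive barcodes, single barcodes held much of the other 3 chemokines. Ccl3, an inflammatory chemokine, had 2, 0 and 0 UMIs there in the control and 5, 3 and 192 in the IE-HuR-/- libraries, and 184 of 192 of IE-HuR-/- library 3 (95.8%) were in 1 barcode. The barcode richest in each gene in that library held 285 of 391 Ccl4 UMIs (72.9%) and 119 of 146 Xcl1 UMIs (81.5%). With all barcodes, none of the 3 was called by edgeR against either subset (for Trdc-positive over Cd4-positive, Xcl1 alone of the 3 had an unadjusted p under 0.05; DESeq2 called Xcl1 at 2.07, and edgeR did without a filter on low counts, at 1.46, and with barcodes counted in each subset they matched, at 1.43). Without the same barcode of each library, the Trdc-positive over Cd4-positive differences were 2.73 for Ccl3, 2.10 for Ccl4 and 2.33 for Xcl1, and the Cd8a-positive over Cd4-positive ones 2.22, 1.42 and 1.84. These values are a description with no test, because taking out the Cd4-positive barcode highest in these genes lowers the Cd4-positive side by construction. Without IE-HuR-/- library 3, Ccl3 stood at 2.92 and 2.37 in the 2 comparisons, and Xcl1 at 2.54 in the first. No p is given for these values either, since that library is singled out here for its barcodes rich in these genes.

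**Figure D2:**
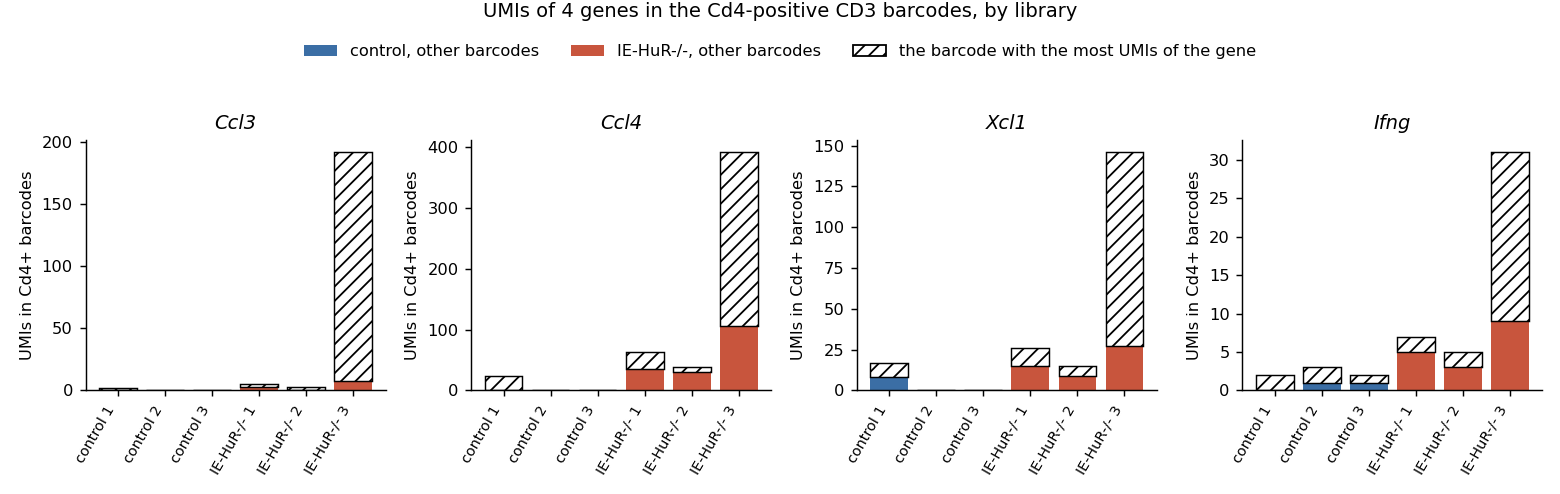
UMIs of Ccl3, Ccl4, Xcl1 and Ifng in the Cd4-positive CD3 barcodes of each library (linear y axis, own scale per gene), with the part held by the barcode richest in that gene set apart. In IE-HuR-/- library 3 that barcode held 184 of 192 Ccl3 and 22 of 31 Ifng UMIs.

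Between Trdc-positive and Cd8a-positive barcodes, 0 of the 10 genes were called in the edgeR fit over 18 sums (2 at an unadjusted p under 0.05, and 0 called with DESeq2), where 1.09% of genes were called. Within libraries the order was the same for most of them: Gzma, Gzmb, Nkg7, Fasl, Ccl3, Ccl4 and Ccl5 were higher in the Trdc-positive sum in 6 of 6 libraries. Gzmb differed by 0.24 on the log2 scale (95% interval -0.60 to 1.07) and Ccl5 by 0.18 (-0.62 to 0.98). When the 12 Trdc-positive and Cd8a-positive sums were fitted without the Cd4-positive ones, an alternative chosen after seeing the data, 6 of the 10 were called by edgeR, where 2.33% of all genes tested were called. These were Gzmb at 0.25 (adjusted p = 0.0012), Nkg7 at 0.19 (0.0046), Fasl at 0.24 (0.046), Ccl3 at 0.50 (0.029) and Ccl5 at 0.18 (1.6e-05), higher in Trdc-positive barcodes, and Ifng at -0.94 (0.035). Gzma was at 0.18 (adjusted p = 0.058) and Prf1 at 0.07 (0.77) in that fit. In the 18-sum fit Ccl3 was called without IE-HuR-/- library 3 (edgeR adjusted p = 0.037). Over 18 alternatives, the 12-sum fit among them, Ccl3 was called in 3, and Ccl4 and Xcl1 in 1 each. Ifng was called in 2 of 17, Gzmb, Nkg7, Fasl and Ccl5 in 1 each, and Gzma and Prf1 in 0.

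In single barcodes the genes divided into those seen in most and those seen in few. Each barcode was thinned to 2000 UMIs, and shallower ones were left out (70 control and 54 IE-HuR-/- Trdc-positive barcodes, 86 and 114 Cd8a-positive, 2 and 6 Cd4-positive). A Gzma UMI was then found in 80.7 to 87.3% of Trdc-positive, 75.8 to 86.3% of Cd8a-positive and 18.2 to 82.3% of Cd4-positive barcodes over the 6 libraries. In the epithelial gate, which should lack the gene, it was found in 6.37 to 11.6%. Without thinning the Gzma shares were 83.9 to 90.7%, 76.2 to 90.2%, 25 to 92.6% and 23.7 to 33.7% in the same order, at median depths per library of 4347 to 5601 UMIs for Trdc-positive and 1901.5 to 4253 UMIs for epithelial gate barcodes. Other barcodes without a CD3 UMI gave a higher thinned background. Gzma was in 5.71 to 26.5% of those gated on myeloid markers and in 8.82 to 25% of those gated on B and plasma markers. The low end of the Cd4-positive range lay within both.

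Ccl5 was in 95.4 to 97.3% of thinned Trdc-positive and 88.8 to 94.3% of Cd8a-positive barcodes, and in 3.91 to 6.97% of the epithelial gate. Gzmb was in 78.4 to 82.8% and 71.4 to 79.8%, and Nkg7 in 87.5 to 91.6% and 79.1 to 87%. The genes of fewer barcodes were Prf1, in 10.7 to 17.5% of Trdc-positive barcodes, Fasl in 14.5 to 22.2%, Ccl3 in 10.8 to 13.1%, Ccl4 in 27 to 34.1%, Xcl1 in 14.8 to 24.9% and Ifng in 0.416 to 1.01%. Each of these 6 was in at most 0.668% of epithelial gate barcodes.

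**Figure D3:**
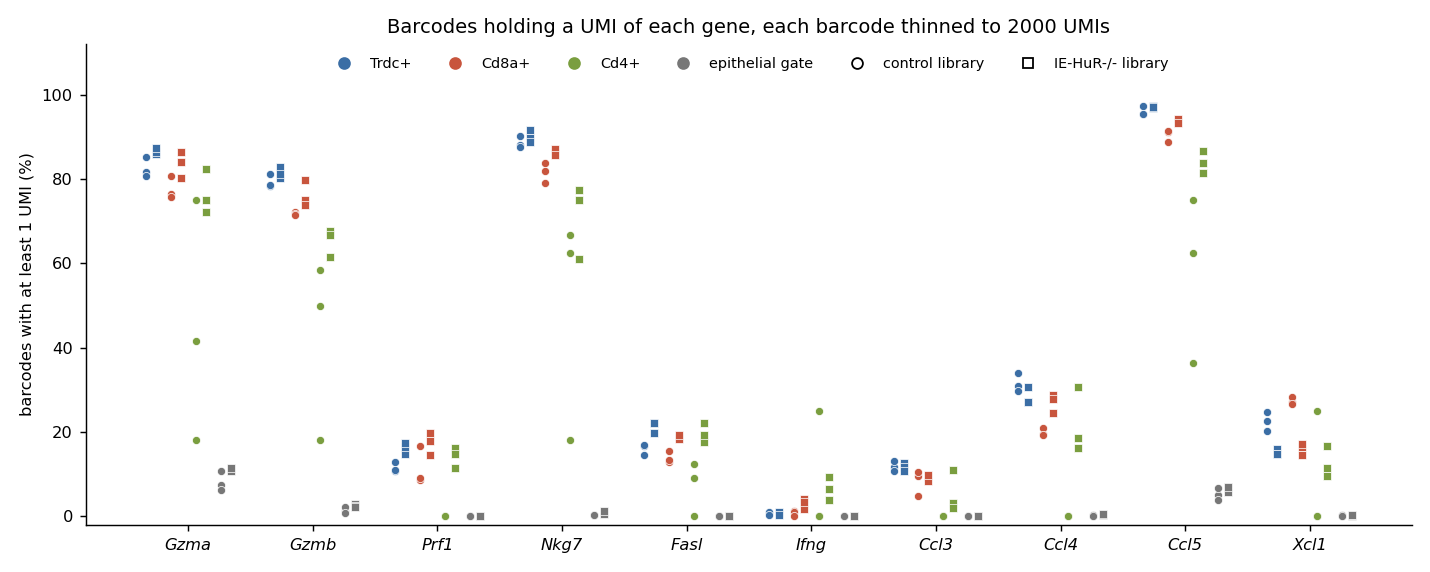
Share of barcodes (%) with at least 1 UMI of each gene after each barcode was thinned to 2000 UMIs, by subset and label, with the epithelial gate as background. Points are libraries; Xcl1 was in 20.3 to 24.9% of Trdc-positive barcodes in the control and 14.8 to 16% in the IE-HuR-/- libraries.

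Both granzymes were seen together in 76.2 to 82.5% of thinned Trdc-positive and 68.5 to 78% of Cd8a-positive barcodes. Gzma without Gzmb was in 3.89 to 6.44% and 6.83 to 11%, and Gzmb without Gzma in 0.299 to 2.21% and 1.54 to 3.77%. Neither was seen in 12.4 to 17.5% and 12 to 21.7%. At least one of Ccl3, Ccl4 and Xcl1 was in 44.5 to 55.9% of Trdc-positive and 41.6 to 49.5% of Cd8a-positive barcodes. The mean number of the 10 genes per barcode was 4.39 to 4.54 in Trdc-positive, 3.98 to 4.38 in Cd8a-positive and 1.0 to 3.81 in Cd4-positive barcodes.

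The label comparison asked whether lymphocytes left in the mucosa of mice without epithelial HuR differed in these genes from those of control littermates. The makeup of the CD3 barcodes differed between the labels. CD3 barcodes were 11.1, 9.52 and 8.48% of barcodes with at least 200 genes in the control and 14.2, 15.1 and 15.8% in the IE-HuR-/- libraries. Trdc-positive barcodes made up 62.8, 57.3 and 65.1% in the control and 47.9, 47.3 and 50.6% in the IE-HuR-/- libraries among CD3 barcodes. Cd8a-positive barcodes made up 28, 29.1 and 23.9% in the control and 33.8, 36 and 33% in the IE-HuR-/- libraries, and Cd4-positive ones 1.17, 0.838 and 1.03% in the control and 5.12, 4.17 and 3.98% in the IE-HuR-/- libraries. The labels did not overlap in any of these shares, and each difference had p = 0.1 in a two-sided exact permutation test, the smallest that 3 against 3 libraries allow. When barcodes positive for more than one of the genes counted in each subset they matched, the log2 ratio of the Cd8a-positive share turned to -0.03 (exact permutation p = 0.4). With at least 1 CD3 UMI that of the Trdc-positive share was -0.1996 (exact permutation p = 0.2). Among all barcodes with at least 200 genes, Trdc-positive ones were 6.996, 5.46 and 5.52% in the control and 6.802, 7.14 and 7.99% in the IE-HuR-/- libraries. These values overlapped and were not tested, so the lower Trdc-positive share holds among CD3 barcodes only.

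Within the Cd8a-positive barcodes, those with a Cd8b1 UMI were 9.62, 6.01 and 10.8% in the control and 29.1, 30.7 and 29% in the IE-HuR-/- libraries (two-sided exact permutation p = 0.1). Barcodes with Cd8b1 had less Gzma, 8349 to 12783 CPM over the libraries against 19080.3 to 23397 CPM in those without. They also had less Gzmb, 1261 to 2669.7 CPM against 2559 to 3418 CPM, and both genes were lower in 6 of 6 libraries. Ifng was higher with Cd8b1 in 5 of 6 libraries, on 64 UMIs, and Prf1 in 3 of 6. Label differences in Cd8a-positive barcodes are therefore given also without the barcodes that held Cd8b1, an alternative chosen after seeing the data. A barcode without a Cd8b1 UMI can still come from a cell with Cd8b1 RNA that was not captured. The alternative may therefore leave part of the difference in makeup. Epithelial RNAs were 1.48 to 2.29% of the UMIs of Cd8a-positive barcodes in the control and 2.37 to 2.44% in the IE-HuR-/- libraries. Other marker lists, as summed levels, also moved with the label without overlap, and their part in the label differences was not tested. The CD4 list (4 of 5 genes detected, Cd4 itself at 0 by the choice of barcodes) was 16.9 to 28.5 CPM in the control and 81.1 to 86.4 CPM in the IE-HuR-/- libraries in Cd8a-positive barcodes. In Trdc-positive barcodes the CD4 list (4 of 5, Foxp3 at 0) was 10.8 to 13.9 CPM in the control and 27.6 to 32.9 CPM in the IE-HuR-/- libraries, the myeloid list (5 of 5) 43.5 to 56.7 CPM in the control and 74.8 to 89.7 CPM in the IE-HuR-/- libraries, the B and plasma list (5 of 5) 50.7 to 51.6 CPM in the control and 74.5 to 1102 CPM in the IE-HuR-/- libraries and the CD8 list (2 of 2) 881 to 1109 CPM in the control and 1135 to 1273 CPM in the IE-HuR-/- libraries. In Cd4-positive barcodes the CD4 list (5 of 5) was 246 to 659 CPM in the control and 753 to 1009 CPM in the IE-HuR-/- libraries, the B and plasma list (4 of 5, Ms4a1 at 0) 0 to 15.3 CPM in the control and 17.4 to 40.5 CPM in the IE-HuR-/- libraries and the erythroid list (4 of 4) 107 to 260.1 CPM in the control and 53.2 to 74 CPM in the IE-HuR-/- libraries. In sums such as these, fewer cells with a gene and less RNA per cell cannot be told apart.

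**Figure D4:**
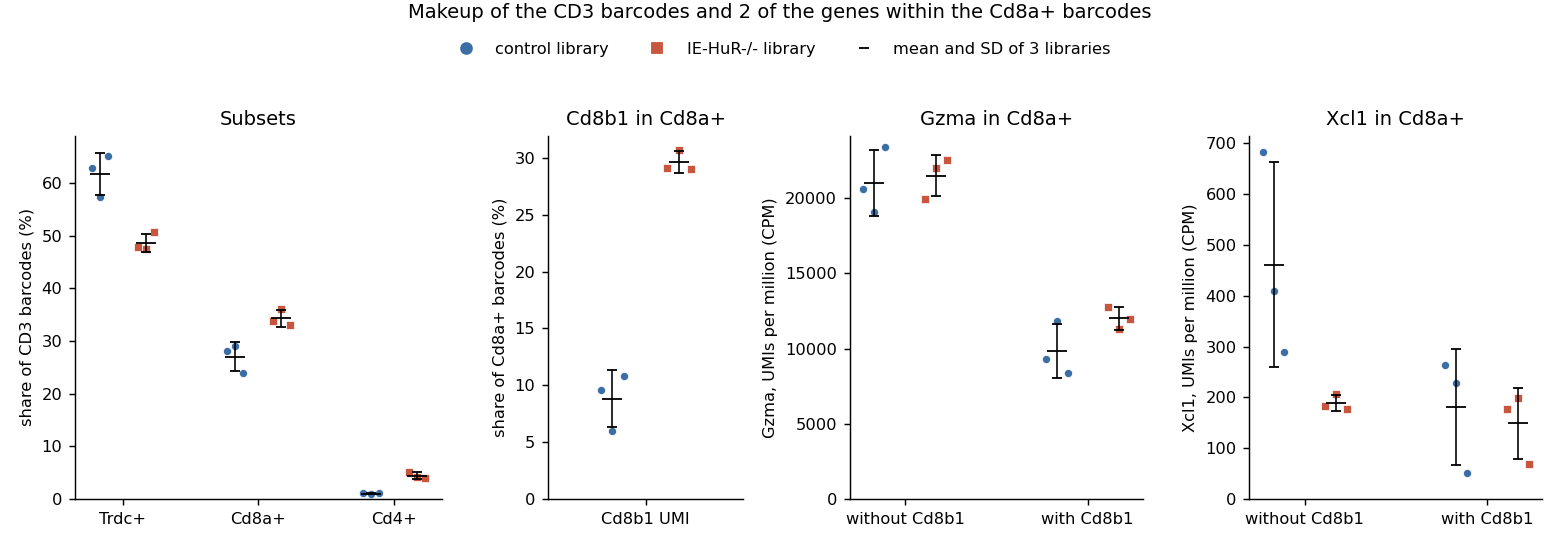
Shares of the subsets among CD3 barcodes and of Cd8b1 barcodes among Cd8a-positive ones (%), and levels in UMIs per 1000000 in Cd8a-positive barcodes without and with Cd8b1, by label. Points are libraries; barcodes with Cd8b1 were 6.01 to 10.8% in the control and 29 to 30.7% in the IE-HuR-/- libraries, and Gzma was lower in them in 6 of 6 libraries.

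Of the 10 genes, Prf1 was the one called between the labels, in Cd8a-positive barcodes, where 2.62% of 11238 genes tested were called. It had 77, 96 and 74 UMIs in the control and 185, 202 and 241 in the IE-HuR-/- libraries, or 45.5, 45.2 and 66 CPM in the control and 77.3, 68.7 and 88.6 CPM in the IE-HuR-/- libraries. All IE-HuR-/- values lay above all control values, with control library 3 close below IE-HuR-/- library 2. The shares of thinned barcodes with a Prf1 UMI did overlap, at 8.56 to 16.8% in the control and 14.6 to 19.8% in the IE-HuR-/- libraries. The log2 fold change was 0.62 (SE 0.14, edgeR adjusted p = 0.018). Over 18 alternatives it stayed between 0.46 and 0.76 and was called in 10. The call ended without control library 1 (adjusted p = 0.073), control library 2 (0.08), IE-HuR-/- library 1 (0.052) or IE-HuR-/- library 3 (0.13), with DESeq2 (0.075), with counts thinned to the lowest total (0.16), with at least 1 CD3 UMI in place of 2 (0.071) and with barcodes counted in each subset they matched (0.057). Without the barcodes that held Cd8b1 the value was 0.63 (edgeR adjusted p = 0.035), and without barcodes of over 5% epithelial UMIs 0.66 (adjusted p = 0.019).

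In Trdc-positive barcodes Prf1 was 61.8, 52.7 and 58 CPM in the control and 75.7, 79.9 and 82.1 CPM in the IE-HuR-/- libraries. These values did not overlap, and the log2 fold change was 0.43 (SE 0.09), but it was not called (edgeR adjusted p = 0.15). Of 18 alternatives it was called in 1, without a filter on low counts (edgeR adjusted p = 0.019), where 248 genes were called. None of the 10 genes was called by edgeR in the main fit of Trdc-positive barcodes (3 at an unadjusted p under 0.05, and 0 called with DESeq2), where 0.325% of 11993 genes were called, 24 higher and 15 lower, against 39 and 77 with DESeq2. In Cd4-positive barcodes Prf1 had 0, 1 and 1 UMIs in the control and 15, 9 and 17 in the IE-HuR-/- libraries, without overlap, or 37.5 to 43.1 CPM in the latter. The 0 UMIs of control library 1 allow up to 52 CPM, by counting error only, so a difference from that library was not detectable at this depth.

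Fasl gave values in the same direction without a call in the main fits. In Trdc-positive barcodes it was 88, 74.7 and 85 CPM in the control and 117, 108 and 106 CPM in the IE-HuR-/- libraries, without overlap, with a log2 fold change of 0.38 (SE 0.08, edgeR adjusted p = 0.15). Of 18 alternatives there, Fasl was called in 1, without a filter on low counts (edgeR adjusted p = 0.028). In Cd8a-positive barcodes it was 72.1, 64.9 and 76.7 CPM against 88.6, 86 and 96 CPM, again without overlap, with 0.36 (SE 0.12, edgeR adjusted p = 0.12). In Cd4-positive barcodes it was 34.7, 13 and 30.7 CPM against 70.0, 113 and 81.1 CPM, the control values resting on 2, 1 and 2 UMIs.

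Gzma and Gzmb differed little in level between the labels where barcodes were many. Gzma in Trdc-positive barcodes was 23006, 18882 and 22665 CPM in the control and 22228, 24859.9 and 21889 CPM in the IE-HuR-/- libraries, with overlap, and its log2 fold change of 0.06 had a 95% interval of -0.08 to 0.20. In Cd8a-positive barcodes it was -0.08 (-0.21 to 0.05), and 0.04 without the barcodes that held Cd8b1. Gzmb in Trdc-positive barcodes was 3291, 2773 and 3344 CPM in the control and 3640.2, 3877 and 3395 CPM in the IE-HuR-/- libraries. These did not overlap, and the log2 fold change of 0.18 (0.03 to 0.32) was not called (edgeR adjusted p = 0.42). In Cd8a-positive barcodes Gzmb was 0.07 (-0.10 to 0.25), with overlap. Nkg7 was 0.08 (-0.08 to 0.24) in Trdc-positive and 0.10 (-0.07 to 0.27) in Cd8a-positive barcodes, and Ccl5 -0.01 (-0.12 to 0.11) and 0.03 (-0.11 to 0.16), with labels that overlapped in level. Shares of thinned Cd8a-positive barcodes did not overlap for Gzmb (71.4 to 72.3% in the control, 73.8 to 79.8% in the IE-HuR-/- libraries). Nor did they for Nkg7 (79.1 to 83.9% against 85.6 to 87%) and Ccl5 (88.8 to 91.4% against 93.2 to 94.3%). In Trdc-positive barcodes the Gzma shares did not overlap (80.7 to 85.2% against 85.9 to 87.3%), and those of Gzmb, Nkg7 and Ccl5 did.

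Xcl1, whose receptor Xcr1 marks a class of dendritic cells, had the lowest log2 fold change of the 10 in both large subsets. In Cd8a-positive barcodes it was 643, 398 and 265 CPM in the control and 181, 204 and 147 CPM in the IE-HuR-/- libraries. All control values lay above all IE-HuR-/- values, and the control values were spread widely. The log2 fold change was -1.30 (SE 0.41, 95% interval -2.40 to -0.20) and was not called (edgeR adjusted p = 0.29), but was called without control library 3, at -1.57 (adjusted p = 0.028). Without the barcodes that held Cd8b1 it was -1.29 (edgeR adjusted p = 0.33). In control library 1, a single Cd8a-positive barcode held 347 of 1088 Xcl1 UMIs (31.9%). After thinning, Xcl1 was in 26.7 to 28.3% of control and 14.6 to 17.1% of IE-HuR-/- Cd8a-positive barcodes. In Trdc-positive sums it was 559, 345 and 459 CPM against 288, 458 and 267 CPM, with overlap and a log2 fold change of -0.46 (SE 0.26, edgeR adjusted p = 0.62).

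Ifng in Cd8a-positive barcodes had 16, 10 and 3 UMIs in the control and 37, 30 and 46 in the IE-HuR-/- libraries, or 9.46, 4.70 and 2.67 CPM in the control and 15.5, 10.2 and 16.9 CPM in the IE-HuR-/- libraries. The labels did not overlap, with control library 1 next to IE-HuR-/- library 2. The log2 fold change was 1.26 (SE 0.35, edgeR adjusted p = 0.056), and it was called without control library 1, at 1.82 (adjusted p = 0.014), without TMM scaling (0.0495), without a filter on low counts (0.0043) and with barcodes counted in each subset they matched (0.045). Without the barcodes that held Cd8b1 it was 0.90 (edgeR adjusted p = 0.45), and those barcodes held 20, 15 and 23 of the UMIs of the 3 IE-HuR-/- libraries.

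Ccl3 and Ccl4, both inflammatory chemokines, overlapped in level between the labels in every subset. In Cd8a-positive barcodes Ccl4 was 189.8, 262 and 241 CPM in the control and 230.3, 425 and 368 CPM in the IE-HuR-/- libraries, with a log2 fold change of 0.57 (SE 0.27, edgeR adjusted p = 0.47), called without IE-HuR-/- library 1 at 0.78 (adjusted p = 9.1e-04). After thinning, Ccl4 was in 19.3 to 20.9% of control and 24.4 to 28.7% of IE-HuR-/- Cd8a-positive barcodes, without overlap. The shares of Gzmb, Nkg7, Fasl, Ifng, Ccl5 and Xcl1 there did not overlap either, with Xcl1 alone lower in the IE-HuR-/- libraries. Those of Gzma, Prf1 and Ccl3 did overlap. The part of all genes without overlap in such shares is not given, so these have no background to be judged against. Of the thinned Cd4-positive barcodes 0 had Ccl4 in the control, where 0 allows up to 25 to 37.5% per library by counting error only, and 16.1 to 30.8% in the IE-HuR-/- libraries. Before thinning, control library 1 held 23 Ccl4 UMIs in 2 of 13 Cd4-positive barcodes, 22 of them in 1 barcode, and control library 3 held 1. The Cd4-positive sums were 399, 0 and 15.3 CPM in the control and 157, 165 and 991 CPM in the IE-HuR-/- libraries, with overlap. In Trdc-positive barcodes the log2 fold change of Ccl4 was -0.13 (SE 0.11, edgeR adjusted p = 0.71). Ccl3 was -0.27 (SE 0.16) in Trdc-positive and -0.10 (SE 0.15) in Cd8a-positive barcodes, neither called, and the latter was 0.01 without control library 1 and 0.06 without IE-HuR-/- library 1.

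**Figure D5:**
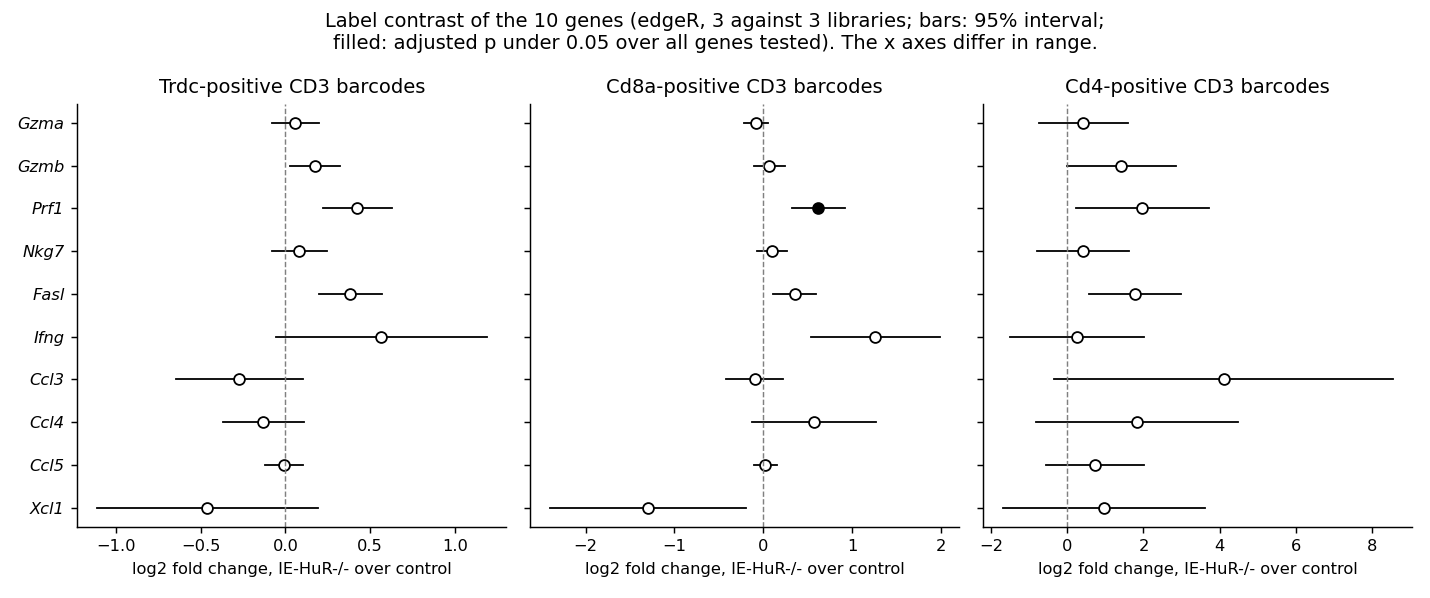
Log2 fold change of IE-HuR-/- over control libraries with its 95% interval for the 10 genes in each subset, 3 against 3 libraries. Prf1 in Cd8a-positive barcodes, at 0.62, is the one point with an edgeR adjusted p under 0.05.

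In Cd4-positive barcodes 0 of the 10 genes were called between the labels by edgeR (2 at an unadjusted p under 0.05, Prf1 and Fasl; 0 of the 10 with DESeq2), where 0% of 5406 genes were called. All 10 log2 fold changes were above 0, with a median of 1.19. Of all 5406 genes tested, 2953 were above 0, with a median of 0.06. Some of the 10 reached the 30 UMIs needed for testing mainly through the IE-HuR-/- libraries. Prf1 had 0, 1 and 1 UMIs in the control and 15, 9 and 17 in the IE-HuR-/- libraries, and Ccl3 2, 0 and 0 against 5, 3 and 192. The shared sign and its median are therefore a description and no support for a difference. In the same sums Klf2, the marker of circulating T cells given above, was 117 to 572 CPM in the control and 5.0 to 30.4 CPM in the IE-HuR-/- libraries, and its part in the fold changes was not tested. Gzmb was 971, 78.1 and 537 CPM in the control and 1259.7, 1819 and 1031 CPM in the IE-HuR-/- libraries, without overlap. Of 18 alternatives it was called in 1, without a filter on low counts (1.62, edgeR adjusted p = 0.0084). Gzma was 4526, 755 and 2517 CPM against 3254, 3955 and 2960.1 CPM, with overlap, and control library 2 was the lowest of the controls for Gzma, Gzmb, Nkg7, Fasl and Ccl5. Without control library 2 the fitted values of Gzma and Nkg7 were -0.03 and -0.04, and without IE-HuR-/- library 3 that of Xcl1 was -0.52.

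The CD3 barcodes with no UMI of Trdc, Cd8a or Cd4 were described in the same way. Gzma there was 2547 to 2948 CPM in the control and 7900 to 12257 CPM in the IE-HuR-/- libraries, and Gzmb 296 to 467 CPM against 1169 to 1843 CPM. Prf1 was 11 to 15.5 CPM against 44 to 54.4 CPM and Ccl5 1891 to 2397 CPM against 4891 to 7313 CPM. Nkg7 was 157 to 179 CPM against 406 to 497 CPM and Fasl 12.9 to 19.6 CPM against 35.5 to 46.8 CPM. These 6 genes did not overlap between the labels, and the other 4 did. The share of all genes without overlap in these barcodes is not given, so the 6 have no background to be judged against. Xcl1 was 62.6 to 81.7 CPM in the control and 21.7 to 76.5 CPM in the IE-HuR-/- libraries, Ccl4 34.4 to 217 CPM against 62.9 to 100 CPM, Ccl3 9.82 to 27.2 CPM against 13.6 to 26.1 CPM and Ifng 0 to 10.3 CPM against 3.14 to 7.10 CPM. These sums rested on 88, 175 and 74 barcodes in the control and 148, 149 and 154 in the IE-HuR-/- libraries. Median depths were 2773.5, 2101 and 2559.5 UMIs in the control and 3581.5, 3702 and 3299 UMIs in the IE-HuR-/- libraries, without overlap. The differences in these barcodes, and the part of depth in them, were not tested.

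Whether the label difference itself differed between subsets was tested in the fit over 18 sums. Between Trdc-positive and Cd8a-positive barcodes, edgeR called 0 of the 10 genes (0 at an unadjusted p under 0.05), where 0.0314% of genes were called. Between Cd4-positive and Cd8a-positive barcodes it called 0 as well (2 at an unadjusted p under 0.05, Gzmb and Fasl), where 0.0314% of genes were called and the median over all genes was 0.39. DESeq2 was not run for these differences. The fit shares its spread with the few Cd4-positive barcodes, and its standard errors for Trdc-positive against Cd8a-positive barcodes were wide. They were 0.51 for Gzma, 0.58 for Gzmb and 0.68 for Ccl5, so 0 calls do not show that the label differences were alike. Without the Cd4-positive sums 21 genes were called, and the values of the 10 in that fit are not given. For Prf1 the difference between Trdc-positive and Cd8a-positive barcodes was -0.19 (95% interval -0.59 to 0.21), so its call in Cd8a-positive barcodes was not shown to be particular to them.

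Other genes of granules, receptors and ligands were taken from lists. Of 14 granule genes tested, 2 were called in Cd8a-positive barcodes, both higher in IE-HuR-/- libraries. Over all genes tested in that contrast, 2.62% were called. Gzmk, another granzyme, was 18.3, 16 and 21.4 CPM in the control and 72.3, 69 and 68.8 CPM in the IE-HuR-/- libraries, without overlap, and rose by 1.95 (SE 0.16, edgeR adjusted p = 3.8e-08). Serpinb6b, a serine protease inhibitor, rose by 0.67 (SE 0.11, edgeR adjusted p = 1.0e-03). In the Cd8a-positive barcodes without Cd8b1, Gzmk was 11.8, 13.1 and 15.9 CPM in the control and 48.5, 35.9 and 38.6 CPM in the IE-HuR-/- libraries, again without overlap. In those with Cd8b1 it was 79.7, 57.3 and 68.2 CPM against 129.6, 154 and 144 CPM. In Trdc-positive barcodes edgeR called 0 of 14 granule genes (4 at an unadjusted p under 0.05).

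Of 14 NK-type and costimulatory receptor genes, 7 were called in Cd8a-positive barcodes, 4 higher and 3 lower in IE-HuR-/- libraries. Over all genes tested in that contrast, 2.62% were called. Klrc1 (NKG2A) was 0 to 0.591 CPM in the control and 5.43 to 10.9 CPM in the IE-HuR-/- libraries (4.19, SE 0.65). A count of 3 UMIs made 1.77, 1.41 and 2.67 CPM in these control sums, so the Klrc1 difference rests on controls near 0. Klrk1 (NKG2D) rose by 2.96 (SE 0.54) and Klre1 by 1.15 (SE 0.14). In barcodes without Cd8b1, Klrk1 had 4, 2 and 0 UMIs in the control and 27, 34 and 7 in the IE-HuR-/- libraries. In those with Cd8b1 it had 0, 1 and 0 against 0, 13 and 11 UMIs. Tyrobp (DAP12), an adaptor of activating receptors, was 1047, 1090.4 and 1273 CPM in the control and 546, 656 and 588 CPM in the IE-HuR-/- libraries, without overlap (-0.92, SE 0.09). In the barcodes without Cd8b1, Tyrobp was 1139, 1140.4 and 1391 CPM in the control and 718, 860.5 and 819 CPM in the IE-HuR-/- libraries, without overlap, and in those with Cd8b1 184, 379 and 264 CPM against 134, 129 and 11.6 CPM. In Trdc-positive barcodes, where 0.325% of all genes tested were called, 1 of 14 was called, Klre1 at 1.11 (SE 0.16).

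The remaining lists held few calls. Over all genes tested, 2.62% were called in Cd8a-positive and 0.325% in Trdc-positive barcodes. Among transcription factors, Runx1 rose by 0.88 (SE 0.12) in Trdc-positive barcodes (1 of 14). Ctla4, an inhibitory receptor, rose by 1.29 (SE 0.32; 1 of 5 inhibitory receptors tested) in Cd8a-positive and by 1.94 (SE 0.31; 1 of 4) in Trdc-positive barcodes. Of other cytokines and death ligands, residence and homing genes and immediate-early and heat shock RNAs, edgeR called 0 in either subset (in Cd8a-positive barcodes 2 of 7, 1 of 7 and 3 of 9 had an unadjusted p under 0.05). In Cd4-positive barcodes no gene of these lists was called by edgeR (4 of 10 granule genes had an unadjusted p under 0.05).

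The genes closest to the 10 in their pattern over the 18 sums were found by Pearson's r with the mean of the 10 standardised log2 profiles, among 3088 genes with a mean of at least 50 CPM. The 5 highest were Nab1 (r = 0.954), Chsy1 (0.953), Ptpn4 (0.953), Ptpn22 (0.953), a phosphatase of T cell receptor signalling, and Itgae (0.949), the alpha chain of the integrin that binds E-cadherin. Itgae averaged 615 CPM in Trdc-positive, 531 CPM in Cd8a-positive and 232 CPM in Cd4-positive sums. Of the 10 genes, Gzmb followed the mean profile closest (r = 0.968), Prf1 less (0.597), and Ifng went against it (-0.575). The mean profile includes these genes themselves, which raises their r by construction. The 18 points share libraries and depth, so these values are a description.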

How the data were processed

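RNA of single mucosal cells was counted in 3 control and 3 IE-HuR-/- droplet libraries. The authors deposited 1 matrix of raw UMI counts per library, whole numbers per gene and barcode. The matrix header names Cell Ranger 6.1.2 and the processing notes Cell Ranger, Seurat and mm10; the labels name a 5′ kit and the methods a 3′ kit and a human reference, so which end of the RNAs was read is not settled here.

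No doublet caller was run; an alternative left out barcodes with over 5% epithelial UMIs. Counts were summed per library and subset and tested with edgeR 4.0.16 (quasi-likelihood, TMM, genes with at least 30 UMIs over the sums, Benjamini-Hochberg over all genes tested). Label contrasts used 6 sums, and subset contrasts and differences of label effects 1 fit of 18 sums with the library as a block. The 18 sums shared 1 estimate of the spread. The common biological coefficient of variation (spread between sums beyond counting) was 0.147 for subset contrasts and 0.140 for differences of label effects. In label contrasts it was 0.370 in Cd4-positive, 0.152 in Trdc-positive and 0.123 in Cd8a-positive barcodes. Standard errors and p-values of contrasts against Cd4-positive barcodes may therefore be too small. Those between Trdc-positive and Cd8a-positive barcodes may be too large for genes that vary widely in the Cd4-positive sums. DESeq2 1.42.0, other scalings, filters and gates, and each library left out were alternatives. CPM are counts per 1000000 UMIs of the sum. The epithelial gate held barcodes without a CD3 UMI and with at least 5% epithelial UMIs, no Ncr1, under 3 myeloid and under 5 B or plasma UMIs. Intervals of log2 differences are 95% intervals of the edgeR fit, and the limit for a count of 0 (3 counts) covers counting error only. The study gives its single-cell values as means from 3 animals, but the assignment of animals to libraries is not stated, so p-values measure the spread between libraries. Shares were compared with exact permutation tests (scipy 1.17.1). On simulated counts with genes changed by a log2 fold of 2, the edgeR step recovered 196 of 200 changed genes for the label contrast in Trdc-positive (11883 genes), 195 of 200 in Cd8a-positive (11115 genes) and 74 of 176 in Cd4-positive barcodes (4947 genes). False calls were 2.49, 7.58 and 2.63% of the calls made, in the same order. The simulation gave all genes of a subset 1 common spread, so it does not show the recovery of smaller differences or of genes with a wider spread.

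Named were the 10 genes, Elavl1 and, per list and subset, up to 4 called genes of largest absolute log2 fold change, with the 5 genes most like the 10; Klf2, Tcrg-C1, Trac, Cd8a, Klra8 and Ncr1 were named as markers, and Ctsw for its difference between subsets. The genes and lists were chosen with earlier results of these data known. The results of some listed genes are not reported here.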

Additional observations from a re-analysis of the deposited data

Results flagged for a closer look

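For 2 granule genes the label difference differed between subsets by the edgeR interaction test over 18 sums. Gzmk was 26.2, 31.1 and 33.1 CPM in the control and 35.1, 31.6 and 32.7 CPM in the IE-HuR-/- libraries in Trdc-positive barcodes, and 18.3, 16 and 21.4 CPM against 72.3, 69 and 68.8 CPM in Cd8a-positive barcodes. The difference of its label differences was -1.84 (SE 0.23, adjusted p = 4.4e-05) on the log2 scale for Trdc-positive minus Cd8a-positive barcodes.

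Ctsw, the cysteine protease cathepsin W of cytotoxic cells, was 121, 52.1 and 46 CPM in the control and 282, 400.3 and 271 CPM in the IE-HuR-/- libraries in Cd4-positive barcodes, without overlap, and 558, 499 and 600 CPM against 468, 519 and 442 CPM in Cd8a-positive barcodes. Its label difference was 2.63 (SE 0.33, adjusted p = 4.4e-05) higher in Cd4-positive than in Cd8a-positive barcodes by the same edgeR test, while within Cd4-positive barcodes alone it was 2.17 (edgeR adjusted p = 0.55). A count of 3 UMIs made 52.03, 39.04 and 46.05 CPM in the Cd4-positive control sums, which rested on 13, 12 and 8 barcodes. Ctsw was near that level in control libraries 2 and 3. The biological coefficient of variation was 0.14 in the shared fit and 0.37 in Cd4-positive barcodes alone. The adjusted p of 4.4e-05 may therefore be too small.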

How the results depend on the processing

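For the label in Trdc-positive barcodes (39 genes called), the count was 116 with DESeq2, 248 without a filter on low counts, 79 without barcodes over 5% epithelial UMIs, and 6 to 83 with 1 library left out. In Cd8a-positive barcodes (294) it was 195 with DESeq2, 582 without a filter, 163 with at least 1 CD3 UMI, 106 with inclusive subsets, 160 without Cd8b1 barcodes, and 170 to 307 with 1 library left out. In Cd4-positive barcodes (0) it was 4 with DESeq2, 39 without a filter, 3 with inclusive subsets, 8 without barcodes over 5% epithelial UMIs, and 0 to 3 with 1 library left out. Thinned to the lowest total, with inclusive subsets and with 1 library left out, Trdc-positive against Cd4-positive (1289) gave 211, 2365 and 766 to 1511, and Cd8a-positive against Cd4-positive (698) 131, 2007 and 503 to 900. Trdc-positive against Cd8a-positive (139) gave 80 with DESeq2, 422 without a filter, 7 thinned, 547 with at least 1 CD3 UMI, 46 with inclusive subsets, 85 without the library block, 296 without the Cd4-positive sums, and 84 to 213 with 1 library left out. The label difference between Trdc-positive and Cd8a-positive barcodes (4) gave 1 with at least 1 CD3 UMI, 1 with inclusive subsets, 37 without barcodes over 5% epithelial UMIs, 21 without the Cd4-positive sums and 1 to 8 with 1 library left out, and that between Cd4-positive and Cd8a-positive barcodes (4) 8 without TMM scaling, 56, 151, 11 without the richest barcodes and 1 to 17. The Cd8a-positive share reversed to -0.030 with inclusive subsets. The cause was not tested for any of these.

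The sign of some of the 10 genes turned, and the cause was not tested. The richest barcodes were chosen by the UMIs of Ccl3, Ccl4, Xcl1 and Ifng and taken out of the Cd4-positive sums alone, so values without them are a description. For the label in Trdc-positive barcodes, the sign turned for Ccl5 to 0.034 without TMM scaling, 0.0030 with filterByExpr, 0.0024 without a filter, 0.0021 with at least 3 CD3 UMIs, 0.018 with 500 genes as the minimum and 25% mitochondrial UMIs as the maximum, -0.038 to 0.033 with 1 library left out (turned without control library 1 or IE-HuR-/- library 1 or IE-HuR-/- library 3), and for Gzma to -0.0045 with at least 1 CD3 UMI. For the label in Cd8a-positive barcodes, the sign turned for Ccl5 to -0.031 with inclusive subsets, -0.047 without Cd8b1 barcodes, -0.0097 to 0.048 with 1 library left out (turned without IE-HuR-/- library 2), and for Ccl3 to -0.22 to 0.064 with 1 library left out (turned without control library 1 or IE-HuR-/- library 1), and for Gzma to 0.041 without Cd8b1 barcodes. For the label in Cd4-positive barcodes, the sign turned for Gzma to -0.77 with inclusive subsets, -0.026 to 1.04 with 1 library left out (turned without control library 2), and for Nkg7 to -0.13 with inclusive subsets, -0.038 to 1.15 with 1 library left out (turned without control library 2), and for Xcl1 to -0.44 without the richest barcodes, -0.52 to 8.34 with 1 library left out (turned without IE-HuR-/- library 3). For Trdc-positive against Cd4-positive, the sign turned for Ccl3 to 1.74 with DESeq2, 2.73 without the richest barcodes, -0.75 to 2.92 with 1 library left out (turned without IE-HuR-/- library 3). For Cd8a-positive against Cd4-positive, the sign turned for Ccl3 to 1.17 with DESeq2, 2.22 without the richest barcodes, -1.28 to 2.37 with 1 library left out (turned without IE-HuR-/- library 3), and for Ccl4 to -0.23 without barcodes over 5% epithelial UMIs, -0.041 without the library block, -0.10 to 1.04 with 1 library left out (turned without control library 2 or IE-HuR-/- library 2). For Trdc-positive against Cd8a-positive, the sign turned for Prf1 to -0.0064 with inclusive subsets, -0.016 without barcodes over 5% epithelial UMIs.

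The labels number the libraries 1 to 3 in both groups. Deviations of same-numbered libraries had r between -0.41 and 0.16 over the subsets, and those of unlike-numbered ones between -0.31 and 0.49. With 3 libraries per label these values cannot decide whether same-numbered libraries were prepared together. With the number as a block, 7, 344 and 0 genes were called for the label in Trdc-positive, Cd8a-positive and Cd4-positive barcodes, and of the 10 genes 4 in Cd8a-positive barcodes, namely Prf1 at 0.61, Ifng at 1.26, Xcl1 at -1.21 and Ccl4 at 0.54. The highest Xcl1 value in Cd4-positive barcodes is against controls at 0 UMIs and is no bound. Depth limits the Cd4-positive values most, and rare RNAs such as Ifng in all subsets.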
